A study of Mus musculus with 4 samples.

Results

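The immediate early and early response genes described here are a list of 36 genes named by symbol, among them the Fos, Jun, Egr, Klf and Nr4a transcription factors, the phosphatases Dusp1 and Dusp6 and the RNA-binding protein Zfp36. Each symbol was matched to its Ensembl identifier in GENCODE M21 on GRCm38, and all 36 were found among the 55471 genes of the table. The rule uses gene symbols alone, but the list was drawn up with earlier results of these data known. The cells were taken from mouse brain with magnetic beads against CD11b, an integrin of microglia and other myeloid cells, and each of 4 libraries was sequenced from the poly(A) RNA of 300 ng of total RNA. All 4 libraries belong to the same group: mice aged 10 to 13 weeks were given PLX5622, an inhibitor of the microglial survival receptor CSF1R, for 7 days, and cells were isolated after 10 more days without it, 17 days in all. No untreated or drug-only group was analysed here, so levels and their spread between libraries are described, not an effect of the drug. Whether the libraries come from separate animals is not stated, so the p-values below speak only of variation among these 4 samples, and that variation may be technical.

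Immediate early genes are switched on within minutes of a stimulus and without new protein synthesis. Signals through MAP kinases, calcium and cyclic AMP activate factors that already sit in the cell, among them SRF with its Elk and myocardin-related partners, which bind the CArG box, and CREB, which binds the cyclic AMP response element (CRE). The transcripts are short-lived, and some of the induced proteins, such as the Dusp phosphatases and Zfp36, shut the response down. In microglia these genes respond to injury and to inflammatory stimuli, and they are also known to be induced while brain tissue is dissociated into cells.

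The promoters of these genes show which of the classical elements lie close to the start. RefSeq promoter sequences on GRCm38.p6 were matched for 29 of the 36 genes, with 38 listed starts. Egr1, Egr3, Fosl1, Ier2, Myc, Rgs1 and Arc had no entry. In the 250 bases before the start, a CArG box on either strand was found in 3 of the 29 genes (Dusp5, Egr2 and Zfp36), or 10.3%, against 1.62% of all 27025 genes in the table. The CRE, TGACGTCA on either strand, was found in 3 genes (Btg2, Dusp1 and Maff), again 10.3%, against 1.77% of all genes. The AP-1 site, TGANTCA on either strand, was found in 2 genes (Csrnp1 and Zfp36l1), 6.90% against 7.82%. The TATA box, TATAAA on the promoter strand, was found in 4 genes (Btg1, Fos, Gadd45b and Zfp36l1), 13.8% against 8.94%. These are matches of letters in a short window, and elements farther upstream were not searched. The CArG boxes are printed in capitals within 30 bases, 5′ to 3′ on the strand of the gene, to show how the same element recurs in a phosphatase, a transcription factor and an RNA-binding protein. The Zfp36 site (minus strand) lies in the 5′ UTR of a longer annotated transcript of the gene, both Egr2 sites (plus strand) lie in an intron of longer Egr2 transcripts, and the Dusp5 site (plus strand), a pair of adjoining boxes, lies upstream of the gene and in an exon of the antisense transcript AC137853.2.
Zfp36, chr7:28379267-28379296: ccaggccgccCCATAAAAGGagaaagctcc
Dusp5, chr19:53529053-53529082: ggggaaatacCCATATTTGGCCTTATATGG
Egr2, upstream site, chr10:67537484-67537513: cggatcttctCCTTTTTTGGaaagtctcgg
Egr2, downstream site, chr10:67537787-67537816: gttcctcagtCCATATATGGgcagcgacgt

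A further 3 promoters are printed because their genes carry the results below or stand for a class: Fos, with its TATA box in capitals, Fosb, in which none of the 4 elements was found in this window, and Dusp1, with its CRE in capitals. The stretches shown hold no annotated exon. Fos is on the plus strand and the other two are on the minus strand.
Fos, chr12:85473640-85473889: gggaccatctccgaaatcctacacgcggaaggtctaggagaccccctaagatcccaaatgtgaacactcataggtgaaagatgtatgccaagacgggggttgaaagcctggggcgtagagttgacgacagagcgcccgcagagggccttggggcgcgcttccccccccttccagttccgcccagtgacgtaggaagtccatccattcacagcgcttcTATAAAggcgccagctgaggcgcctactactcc
Fosb, chr7:19310052-19310295: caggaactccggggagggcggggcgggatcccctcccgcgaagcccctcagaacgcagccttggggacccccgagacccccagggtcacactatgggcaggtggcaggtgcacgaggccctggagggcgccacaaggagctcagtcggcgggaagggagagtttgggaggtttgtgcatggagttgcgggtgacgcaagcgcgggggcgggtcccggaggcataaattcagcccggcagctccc
Dusp1, chr17:26508520-26508722: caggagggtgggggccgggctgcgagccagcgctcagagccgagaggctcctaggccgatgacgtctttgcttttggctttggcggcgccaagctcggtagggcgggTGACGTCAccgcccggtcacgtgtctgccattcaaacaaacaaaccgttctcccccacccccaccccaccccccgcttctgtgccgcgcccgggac

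The members were abundant as a set. Levels are in CPM, that is per 1000000 counts of a library after TMM scaling (trimmed mean of M values), for libraries 1, 2, 3 and 4 in that order. The 36 genes together took 2.01%, 2.58%, 1.75% and 1.42% of all counts, 1.94% ± 0.489 (SD, n = 4), so their share was highest in library 2 and lowest in library 4. Of the 36, 33 reached 1 CPM in every library, 20 had a mean of at least 100 CPM and 6 of at least 1000 CPM. On their mean CPM, 20 lay in the top 10% and 11 in the top 1% of the 16975 protein-coding genes with a count. Zfp36, Jun, Fos, Junb and Btg2 held 52.4% of the members' summed CPM. At the other end, Fosl1, Npas4 and Arc had means under 1 CPM. Between genes, levels were compared per kilobase of annotated exon. On that scale Fos (857 ± 277 CPM per kilobase), Zfp36 (848 ± 221) and Jun (791 ± 192) led, followed by Junb (603 ± 196), Btg2 (473 ± 110), Jund (459 ± 104) and Atf3 (324 ± 136). Their order is loose: for 32 of the 35 pairs of neighbours in the order the ranges over the 4 libraries overlapped. The 3 exceptions were Gadd45b above Dusp2, Fosl2 above Maff, and Arc above Npas4.

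**Figure D1:**
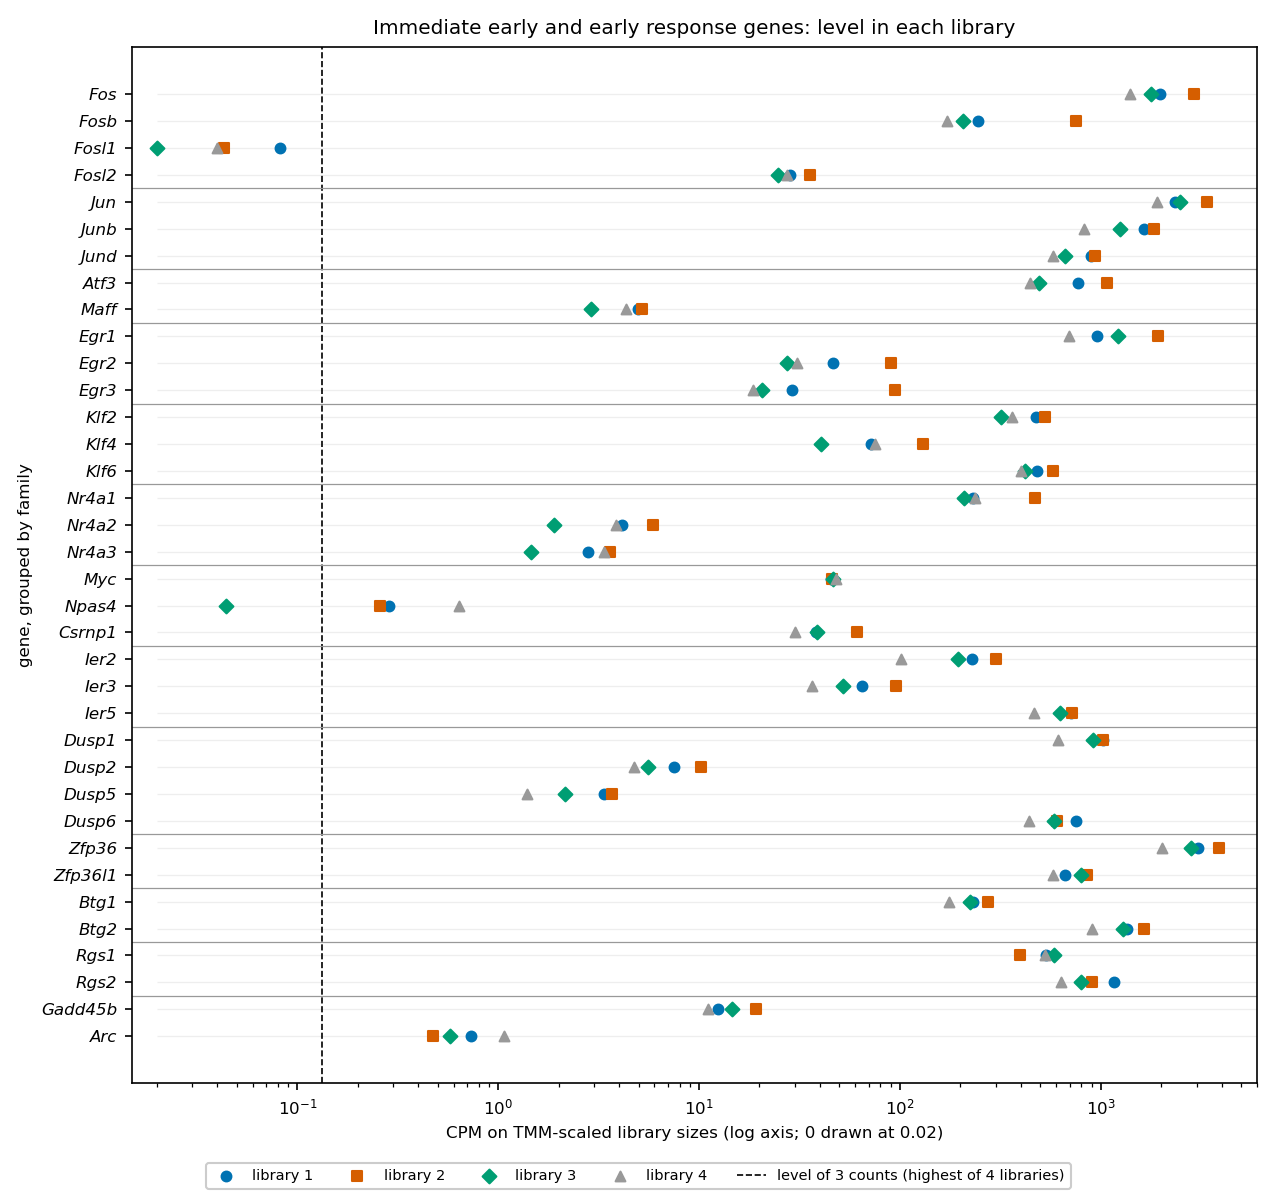
Level of each of the 36 genes in each library, as CPM on TMM-scaled library sizes on a log axis, with a symbol and colour per library and genes grouped by family; a value of 0 is drawn at 0.02 and the dashed line marks the CPM of 3 counts, 0.132 in library 3. Most rows have the square of library 2 on the right and the triangle of library 4 on the left, while Myc is the flattest row and Rgs1 and Arc have library 2 on the left.

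The libraries were of like depth, 23036202 to 24487418 counts, and no 2 of them agreed within sampling noise (chi-square per degree of freedom 19.0 to 93.0). Of 15 lists of cell type markers and of interferon-induced genes, the microglial one had the highest sum, 34278 to 42351 CPM over its 12 genes, all detected, so the defining markers of the labelled cells were present. Transcripts of other cell types were present too. Choroid plexus and ependymal markers summed to 16088, 16072, 3347 and 22430 CPM, and endothelial markers to 925, 939, 218 and 809 CPM. The choroid and ependymal sum rests largely on Ttr, which had a mean of 9625 CPM. No gene of any of the 15 lists was at 0 in all 4 libraries. In bulk RNA, fewer cells of a type and less RNA per cell cannot be told apart. Library 3 stood apart, with the lowest choroid and endothelial sums, and of the 463 genes that varied past the threshold below, 385 had library 3 on the low side as their farthest library.

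Variation between the libraries was examined gene by gene with edgeR's negative binomial goodness of fit, which asks whether a gene varies more than genes of its level do, over 14112 genes with Benjamini-Hochberg adjustment. Of the 36 members 34 had enough counts to be tested, all but Fosl1 and Npas4. The test called 7 of them (20.6%) at an adjusted p under 0.05: Fosb, Egr3, Egr2, Klf4, Ier2, Egr1 and Atf3. Over all genes it called 463, or 3.28%. At an unadjusted p under 0.05 there were 11 members (32.4%), against 9.57% of all genes. These 7 were all highest in library 2, so 20.6% of the tested members were both called and highest there, against 0.772% of all genes. Among the 463 called genes 109 (23.5%) were highest in library 2. For 5 of them (Atf3, Egr1, Egr2, Egr3 and Fosb) library 2 was also the library farthest from the mean, and of the 463 called genes only 9 had library 2 on the high side as their farthest library. For Klf4 the farthest library was library 3, and for Ier2 library 4, both on the low side. Without library 2, 0 of the members passed, with 2 at an unadjusted p under 0.05, and the test of 3 libraries called 276 of 14253 genes (1.94%). Without library 3, 6 members passed (Fosb, Egr1, Egr2, Egr3, Ier2 and Ier3), while Klf4 and Atf3 did not, and 106 of 14802 genes (0.716%) were called. Without library 4, Fosb, Egr2, Egr3 and Klf4 passed, 4 in all, and 258 of 14182 genes (1.82%) were called. The same 4 passed when libraries were scaled to the microglial list, where 431 of 13987 genes (3.08%) were called. Under the quasi-likelihood variance test, which lets genes scatter around their trend, no gene of the whole table passed (0%), and 7 members had an unadjusted p under 0.05, against 4.66% of all genes.

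Most members had their highest value in library 2, a view that was chosen after the values were seen. Of the 34 tested members, 28 were highest in library 2, against 16.5% of all genes tested. Dusp1, Dusp6 and Rgs2 were highest in library 1 (34.2% of all genes), Rgs1 in library 3 (28.3%) and Myc and Arc in library 4 (20.9%). The lowest value fell in library 4 for 23 members (20.3% of all genes), or 14 with the microglial scaling (share of all genes not given here). In library 3 it fell for 8, namely Egr2, Fosl2, Klf2, Klf4, Maff, Nr4a1, Nr4a2 and Nr4a3 (29.2%). It fell in library 2 for Rgs1 and Arc (19.5%) and in library 1 for Myc (31%). In 20 members library 2 was highest and library 4 lowest, against 2.53% of all genes, and 15 followed the order library 2, 1, 3, 4, against 1.21%. The median excess of library 2 over the mean of the other libraries, on the log2(CPM + 0.5) scale, was 0.59 (1.5-fold) over the members and 0.01 over all genes. Between libraries 2 and 4 the median difference was 0.78 (1.71-fold) over the members and -0.01 over all genes. Library 2 exceeded the mean of the other 3 at least 2-fold, on the log2 scale, in 6 members, against 0.893% of all genes. These were Egr3, Fosb, Egr2, Klf4, Nr4a1 and Egr1. Among the 7386 genes with a mean of at least 20 CPM, Egr3, Fosb and Egr2 ranked 1, 2 and 3 by this excess.

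**Figure D2:**
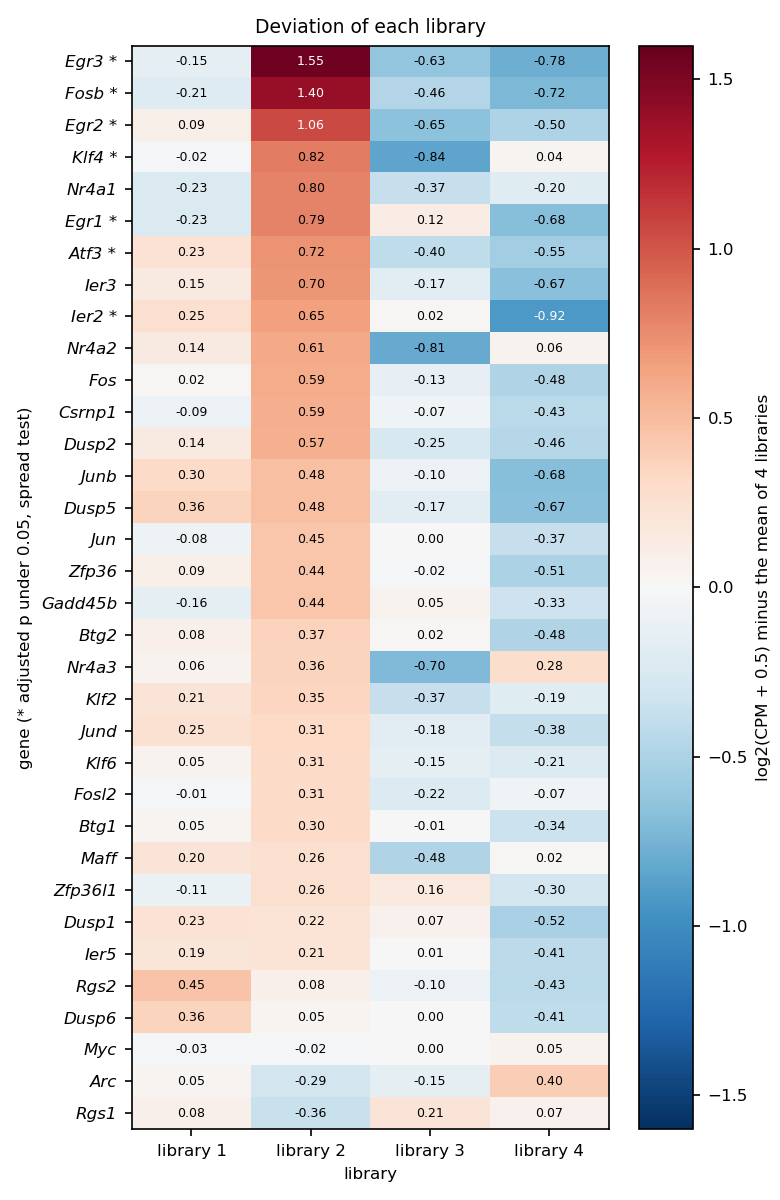
Deviation of each library from the gene's mean over 4 libraries, on the log2(CPM + 0.5) scale, for the 34 members tested, ordered by library 2; an asterisk marks an adjusted p under 0.05 in the spread test. The column of library 2 is positive down to Dusp6 and that of library 4 is mostly negative, with Egr3 at 1.55 and Fosb at 1.40 in library 2.

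**Figure D3:**
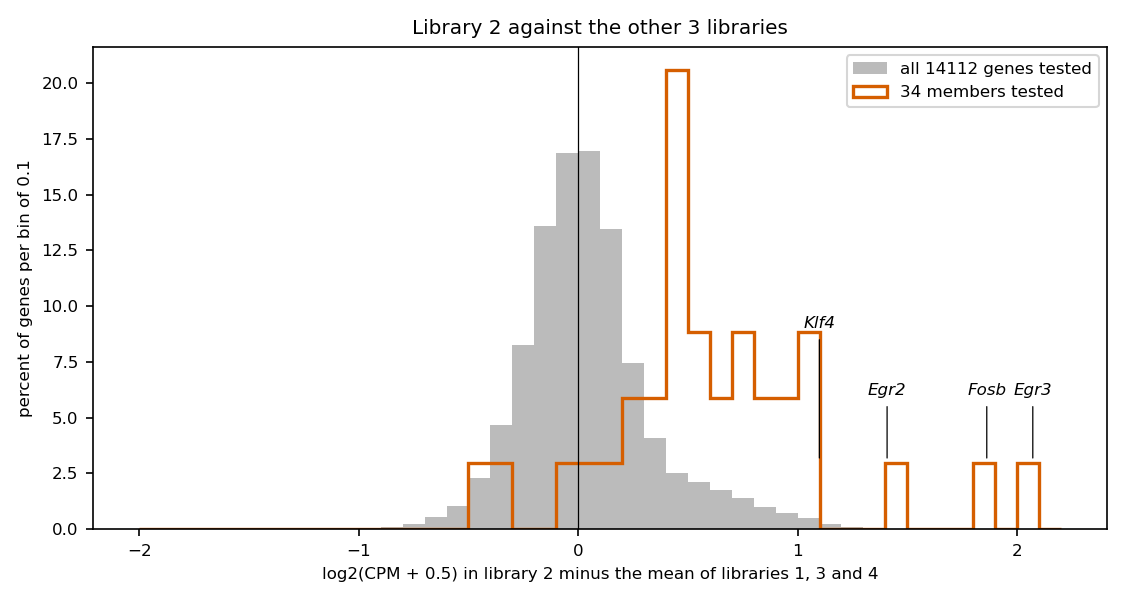
Distribution of log2(CPM + 0.5) in library 2 minus the mean of libraries 1, 3 and 4, as percent of genes per bin of 0.1, for all 14112 genes tested (grey) and the 34 members tested (outline). The grey bulk centres on 0.01 and the members on 0.59, with Klf4, Egr2, Fosb and Egr3 named at the right.

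The Fos proteins pair with Jun proteins to form the transcription factor AP-1. Fos, the founding immediate early gene, had 1975, 2925, 1773 and 1395 CPM, 2017 ± 651 (SD, n = 4), with library 2 on top. Its spread did not pass (adjusted p = 0.388). Fosb, whose short splice form accumulates under repeated stimulation, had 246, 749, 206 and 172 CPM, 343 ± 272. Library 2 thus stood 3.64-fold over the mean of the other 3, which lay close together, and the spread passed (adjusted p = 1.64e-07). It did not pass without library 2 (adjusted p = 1.00) or under the quasi-likelihood test (adjusted p = 0.889, as for every called member). Fosb (ENSMUSG00000003545) lies on chr7:19302696-19310051. Fosl2, a Fos-related partner with slower induction, was low and even, 28.5, 35.8, 24.6 and 27.3 CPM. Fosl1 had 2, 1, 0 and 1 counts, all under the floor of 3 counts, which corresponds to 0.119 to 0.132 CPM and covers counting error only. Only 41.1% of the 50-base windows of the Fosl1 transcript are unique to it among annotated transcripts, so its level is uncertain. Windows that match the opposite strand of another transcript counted as shared, and Fosl1 overlaps Ccdc85b on the other strand. How far such windows matter depends on the strand setting of the counting, which is not given. Per kilobase, Fosb stood at 4.69%, 9.65%, 4.38% and 4.65% of Fos, so the Fosb share was alike in 3 libraries and stood apart in library 2.

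Among the Jun partners, Jun had 2334, 3370, 2468 and 1914 CPM, 2522 ± 613 (SD, n = 4). Junb, which often restrains Jun, had 1635, 1849, 1240 and 827 CPM, 1388 ± 451, with an adjusted p of 0.210 (0.0357 without library 1). Jund, the member made most steadily in resting cells, had 891, 933, 664 and 576 CPM, 766 ± 173. All 3 were highest in library 2 and lowest in library 4, and none passed the test on all 4 libraries. Per kilobase, Jun exceeded Junb 1.34-fold and Jund 1.72-fold, with the same direction in all 4 libraries, while Fos over Jun was 1.15, 1.18, 0.974 and 0.988-fold and changed side. Of the windows of the Jund transcript 51.7% are unique, with matches on either strand counted as shared. Jun, Junb and Jund overlap the antisense genes Junos, Prdx2 and Gm11175. The library kit marks the strand, but the strand setting of the counting is not given in the sources used here, so reads of such partners may be included. Atf3, Csrnp1, Dusp1, Dusp5, Fosl1, Zfp36 and Zfp36l1 also overlap a gene on the other strand.

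Atf3, a stress-induced AP-1 family factor that often represses inflammatory genes, had 769, 1081, 495 and 447 CPM, 698 ± 292 (SD, n = 4). Libraries 1 and 2 were above libraries 3 and 4, and the spread passed (adjusted p = 0.0412). This call is near the threshold. It did not pass with DESeq2 size factors (0.0655), with the microglial scaling (0.105), without the count filter (0.0845), or without library 2 (0.766), 3 (0.0900) or 4 (0.393). Atf3 lies on chr1:191170296-191218039. Maff, a small Maf factor that lacks an activation domain, had 4.98, 5.18, 2.91 and 4.33 CPM.

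The Egr family, zinc finger factors downstream of MAP kinase and SRF, had 3 members on the list, and all 3 passed. Egr1 had 955, 1936, 1212 and 699 CPM, 1201 ± 533 (SD, n = 4, adjusted p = 0.0233). It was the only called member in which library 3 exceeded library 1. Egr2, which also controls myelination and macrophage activation, had 46.3, 90.7, 27.4 and 30.6 CPM, 48.7 ± 29.2 (adjusted p = 0.00313). Egr3, a target of calcium and calcineurin signals in lymphocytes and neurons, had 28.9, 95.1, 20.5 and 18.5 CPM, 40.8 ± 36.5 (adjusted p = 8.24e-07). In Egr3 library 2 was 4.20-fold over the mean of the others, the largest excess among these members, and the fold from the lowest to the highest library was 5.14. Without library 2 none of the 3 passed (adjusted p = 1.00 each), and Egr1 also did not pass without library 4 (0.501) or with the microglial scaling (0.0653). The proportions within the family were not fixed. Per kilobase, Egr3 stood at 3.08%, 5.0%, 1.72% and 2.69% of Egr1, highest in library 2. Egr2 stood at 6.39%, 6.18%, 2.99% and 5.78% of Egr1, with library 3 apart on the low side and library 2 level with library 1. On GRCm38 Egr1 spans chr18:34859823-34864984, Egr2 chr10:67535475-67542188 and Egr3 chr14:70077203-70082614.

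Of the Krüppel-like factors, Klf4, a factor of macrophage polarisation and endothelial quiescence, had 72.2, 130, 40.5 and 75.3 CPM, 79.5 ± 37.1 (SD, n = 4, adjusted p = 0.0164). It had its highest value in library 2 and its lowest in library 3, the library with the lowest endothelial marker sum (218 CPM), and did not pass without library 2 (0.828) or library 3 (0.448). Klf4 lies on chr4:55527143-55532466. Klf2, which is induced by blood flow in endothelium and holds macrophages quiescent, had 478, 527, 320 and 362 CPM, 422 ± 96.9, again lowest in library 3. The part of endothelial RNA in these values was not tested. Klf6 had 483, 578, 420 and 401 CPM, 470 ± 79.6. Neither of these passed the test. Per kilobase, Klf4 stood at 21.5%, 32.4%, 13.9% and 27.0% of Klf6.

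**Figure D4:**
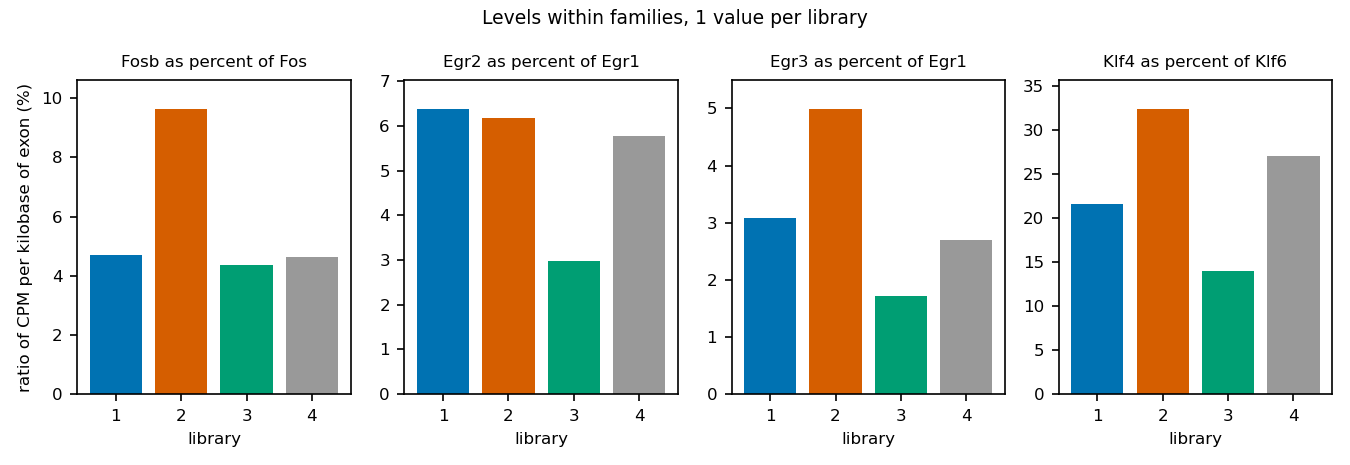
Ratio of CPM per kilobase of exon between family members, in percent, with 1 bar per library and no error bar since each bar is 1 library; from left to right Fosb over Fos, Egr2 over Egr1, Egr3 over Egr1 and Klf4 over Klf6. Fosb over Fos is high in library 2 alone (9.65% against 4.38% to 4.69%), whereas Egr2 over Egr1 is low in library 3 alone (2.99%).

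The Nr4a orphan nuclear receptors act without a known ligand and dampen inflammatory transcription. Nr4a1 had 230, 470, 209 and 235 CPM, 286 ± 123 (SD, n = 4). Libraries 1, 3 and 4 lay close together and library 2 stood 2.09-fold over their mean, with an adjusted p of 0.0681 that missed the threshold. It passed with total counts in place of TMM (0.0464) and without library 1 (0.00684). Nr4a2, with 4.12, 5.87, 1.89 and 3.85 CPM, and Nr4a3, with 2.81, 3.58, 1.45 and 3.37 CPM, were both highest in library 2 and lowest in library 3. Per kilobase, Nr4a1 exceeded Nr4a2 85.7-fold and Nr4a3 174-fold, so the family was nearly all Nr4a1.

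Among the other transcription factors, Myc, the growth regulator, was the flattest member of the list, with 45.6, 46.1, 46.5 and 48.3 CPM, 46.6 ± 1.195 (SD, n = 4), a 1.06-fold range. Csrnp1, a nuclear factor induced by AXIN1, had 38.1, 61.2, 38.7 and 30.0 CPM. It overlaps Cx3cr1 on the same strand, an abundant microglial gene, so some of its counts may depend on how shared reads were treated. Npas4, a neuronal activity factor, had 7, 6, 1 and 16 counts, or 0.286, 0.259, 0.0440 and 0.635 CPM, under the floor in library 3. Its highest library was library 4, unlike most of the list.

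The Ier genes are small early response genes. Ier2 had 229, 302, 194 and 101 CPM, 206 ± 83.4 (SD, n = 4, adjusted p = 0.0170), with library 4 well below the other 3. It did not pass without library 4 (1.00), without library 2 (0.258) or with the microglial scaling (0.130). Ier2 lies on chr8:84661331-84662852. Ier3, an NF-kB target that modulates cell survival, had 65.1, 95.8, 52.0 and 36.7 CPM, ranked by library like Ier2, and did not pass (adjusted p = 0.130). It passed without library 1 (0.0219) and without library 3 (0.0485). Ier5, a regulator of the heat shock factor HSF1, had 708, 719, 624 and 465 CPM.

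The dual-specificity phosphatases switch MAP kinases off and are themselves induced by them. None of the 4 passed the test. Dusp1, the nuclear enzyme that favours p38 and JNK, had 1030, 1024, 918 and 612 CPM, 896 ± 196 (SD, n = 4). It overlaps AC122252.4 and AC122252.1 on the same strand, so some of its counts may depend on how shared reads were treated. Dusp6, the cytoplasmic phosphatase of ERK, had 750, 605, 585 and 442 CPM, 595 ± 126. Both were level with or lower in library 2 than in library 1, unlike the Fos and Egr genes, and both were lowest in library 4. Dusp2, with 7.47, 10.2, 5.55 and 4.76 CPM, and Dusp5, with 3.35, 3.67, 2.16 and 1.39 CPM, were low and followed the common order of libraries. Per kilobase Dusp1 exceeded Dusp6 1.42-fold and Dusp2 79.3-fold.

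Zfp36 and Zfp36l1 bind AU-rich elements in messenger RNAs and speed their decay. Zfp36, also called tristetraprolin, was the most abundant member by CPM, with 3045, 3883, 2823 and 2015 CPM, 2942 ± 768 (SD, n = 4). Zfp36l1 had 662, 854, 797 and 582 CPM, 724 ± 124, but only 43.1% of the windows of its transcript are unique. Matches on either strand counted as shared there, and Zfp36l1 overlaps Gm26669 on the other strand. Neither passed. Per kilobase Zfp36 exceeded Zfp36l1 3.45-fold, with the same direction in each library.

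Btg1 and Btg2, which slow proliferation and recruit the deadenylase complex, differed in level by 10.9-fold per kilobase and kept that ratio most evenly of the pairs compared, at 11.2, 11.5, 11.2 and 9.92-fold. Btg2 had 1346, 1646, 1291 and 909 CPM, 1298 ± 303 (SD, n = 4). Btg1 had 231, 276, 223 and 176 CPM, 226 ± 40.7. Both were highest in library 2 and lowest in library 4 without passing the test.

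The Rgs proteins end signalling through G proteins, and neither Rgs gene followed the library 2 pattern. Rgs1, which limits chemokine receptor signalling in immune cells, had 534, 394, 584 and 529 CPM, 510 ± 81.2 (SD, n = 4), lowest in library 2. Rgs2 had 1169, 902, 801 and 634 CPM, 876 ± 224, highest in library 1. Gadd45b, a stress sensor upstream of p38, had 12.5, 19.2, 14.6 and 11.03 CPM, while Arc, a synaptic gene of neurons, had 18, 11, 13 and 27 counts, or 0.734, 0.475, 0.572 and 1.07 CPM. Arc and Npas4, the neuronal activity genes of the list, thus both had their highest value in library 4.

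In all, 20 pairs within families were compared per kilobase, and 19 kept the same direction in all 4 libraries. With 4 libraries the exact permutation test by sign flips (two-sided) gives at best p = 0.125, from 2 of 16 sign flips, or 0.132 adjusted over the 20 pairs, so none could pass 0.05. The ratios are descriptions.

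The upstream and neighbouring genes of the pathway were read from 3 further lists. None of 26 kinases and transcription factors that act before the immediate early genes passed the spread test, and 0 had an unadjusted p under 0.05, against 3.28% and 9.57% of all genes, shares at which lists of this size hold few calls or none. Their highest members were Mef2a (612 ± 54.5 CPM, SD, n = 4), Rps6ka1, the kinase RSK1 (433 ± 54.2 CPM), and Mapk14, the kinase p38 alpha (305 ± 38.2 CPM). Of these genes 8 were highest in library 2 (16.5% of all genes) and 12 in library 3 (28.3%). None of 9 other AP-1 family genes passed either, again with 0 at an unadjusted p under 0.05. The quasi-likelihood test called 0 genes of the whole table and DESeq2 listed 5 dispersion outliers in it, so the 0 that both gave for these lists says nothing about them. Among them Maf, a factor of macrophage identity, had 667 ± 89.2 CPM and Mafg, a small Maf factor, 181 ± 13.3 CPM. The median fold from the lowest to the highest library was 1.23 in the upstream list and 1.35 among the AP-1 partners, against 1.98 in the members, of which 17 (50%) exceeded 2-fold. Over all genes tested the median was 1.43 and 22% exceeded 2-fold.

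Of a list of 52 other early response genes 50 were tested, and 5 passed (10%): Ccn1, Klf9, Il1b, Nfkbiz and Ccl4. Over all genes 3.28% passed. At an unadjusted p under 0.05 there were 16, against 9.57% of all genes. Their median fold from lowest to highest library was 1.87, and 24 of the 50 were highest in library 2, against 16.5% of all genes. Il1b, an inflammatory cytokine, had 74.8, 143, 49.0 and 46.3 CPM (adjusted p = 0.00173), and Nfkbiz, an inducible cofactor of NF-kB, had 174, 337, 188 and 115 CPM (adjusted p = 0.0142). These values have the shape seen in Egr2 and Egr1, with library 2 on top, and neither passed without library 2 (adjusted p = 1.00 each) or without library 4 (0.0513 for Il1b and 0.462 for Nfkbiz). Nfkbiz also did not pass with the microglial scaling (0.0596). The other 3 called genes had another shape. Ccn1, a matricellular protein, had 51.1, 39.8, 8.89 and 21.4 CPM (adjusted p = 0.000227). Klf9, a glucocorticoid target, had 46.7, 33.9, 9.64 and 41.4 CPM (adjusted p = 0.00152), so in these genes library 3 was low and library 2 was not the highest. Klf9 and Ccn1 did not pass without library 3 (adjusted p = 1.00 and 0.137). Ccl4, a chemokine of activated microglia, had 338, 317, 150 and 165 CPM (adjusted p = 0.0302), and did not pass without library 2 (0.104), 3 (0.156) or 4 (0.220). It also did not pass with DESeq2 size factors (0.0580), with the microglial scaling (0.147) or without the count filter (0.0726). The most abundant genes of this list did not pass. Rhob, a small GTPase, had 4156, 3467, 3324 and 2714 CPM, Sgk1, a kinase induced by glucocorticoids, 1994, 1626, 1233 and 1079 CPM, and Hspa1b, the inducible heat shock protein HSP70, 577, 729, 968 and 990 CPM. Hspa1b was lowest in library 1 and highest in library 4, so it did not follow the order of the Fos and Egr genes.

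**Figure D5:**
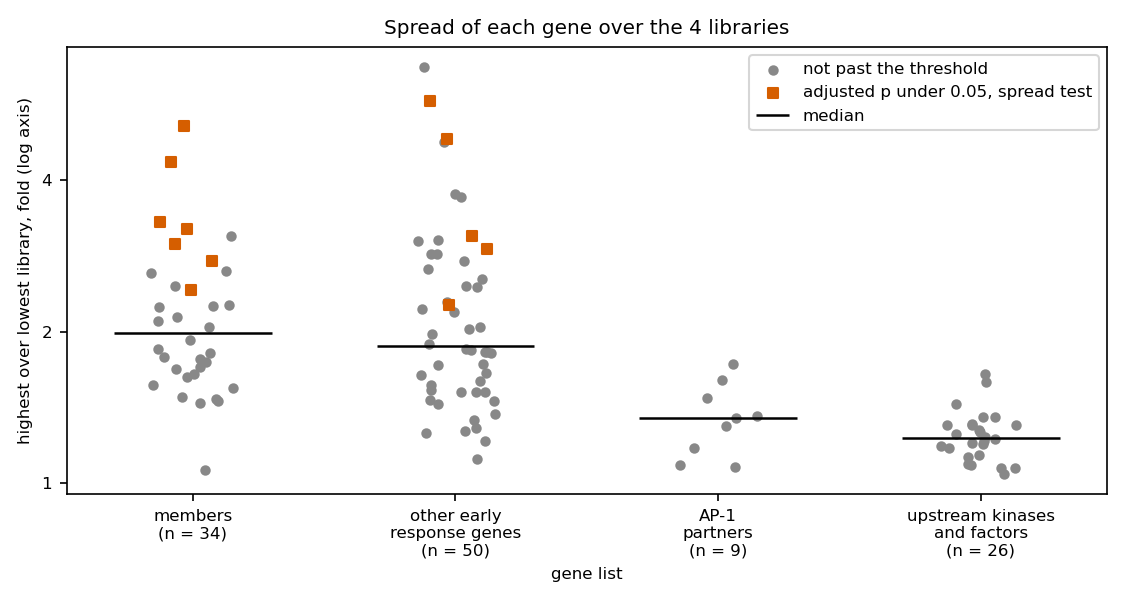
Fold from the lowest to the highest of the 4 libraries for each tested gene, on a log axis, in the members (n = 34) and 3 pathway lists; squares mark an adjusted p under 0.05 in the spread test and lines mark medians. The medians are 1.98 in the members, 1.87 in the other early response genes, 1.35 in the AP-1 partners and 1.23 in the upstream genes.

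Marker sums were set beside the order of the libraries. Between libraries 1 and 2 the endothelial (925 and 939 CPM), choroid (16088 and 16072 CPM), pericyte and smooth muscle (681 and 642 CPM) and neutrophil (75.8 and 77.1 CPM) lists were near equal. Other lists differed between them: oligodendrocyte markers summed to 868 and 473 CPM, erythroid markers to 365 and 175 CPM and border macrophage markers to 689 and 328 CPM, while interferon-induced genes summed to 138 and 272 CPM. In the same libraries Egr3 was 28.9 and 95.1 CPM and Fosb 246 and 749 CPM. Over all 4 libraries the neutrophil list, with 5 of its 9 genes detected, summed to 75.8, 77.1, 34.3 and 18.7 CPM, the order that 15 members also followed. Markers of border macrophages (8 of 8 detected) summed to 689, 328, 311 and 272 CPM. Microglial markers summed to 42351, 37223, 41714 and 34278 CPM, and mitochondrially encoded genes took 1.21%, 1.49%, 1.42% and 1.66% of counts, with library 2 on neither extreme of the latter. The part of these in the members' order was not tested.

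As a set, the members also differed in gene structure from the genes tested, a feature that the rule by symbol did not use. Their median span from first to last exon was 5292 bases, against 25255 for the 12821 protein-coding genes in the spread test, and the median number of exons was 3.5 against 9. Dusp1, Atf3 and Nr4a3 lay above 25255 bases, with spans of 56539, 47744 and 41295. Of the 36, 13 (36.1%) had at most 2 exons, against 6.59%. The pentamer ATTTA, the core of the AU-rich elements that Zfp36 binds, occurred in the annotated 3′ UTR of 33 members (91.7%), against 68.8% of these genes, with a median of 2.26 against 1.28 matches per kilobase of 3′ UTR. Arc, Gadd45b and Ier2 were the members without it. The nonamer TTATTTATT, which contains ATTTA, occurred in 8 members (22.2%), Csrnp1, Dusp1, Fos, Fosl2, Maff, Rgs1, Zfp36 and Zfp36l1, against 7.74%. Among the called genes, the 3′ UTR of Egr3 held 7 ATTTA matches and that of Fosb 1, and none held the nonamer. These are matches of letters in 1 annotated transcript per gene, and no decay was measured.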

How the data were processed

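Poly(A) RNA of CD11b-positive mouse brain cells was sequenced in 4 libraries of 1 group. The values the authors deposited are raw counts of reads per gene. STAR 2.7.2b, featureCounts 1.6.5, bcl2fastq 2.20.0.422 and the build GRCm38 are named in the submitters' processing notes. How the counting handled strand and multi-mapping reads, and on which annotation release, is not given in the sources used. Identifiers were matched to GENCODE M21 for 55230 genes, and 241 without a match stayed in the totals.

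TMM scaling and CPM came from edgeR 4.0.16 (R 4.3.3). The factors were 1.00, 1.01, 0.963 and 1.03. Log values are log2(CPM + 0.5). Spread was tested with the deviance of an intercept-only negative binomial fit at the trended dispersion, which changes with the level of a gene. The deviance was set against the chi-square distribution with 3 degrees of freedom. This was done in the 14112 genes that filterByExpr retained, with Benjamini-Hochberg adjustment and a threshold of 0.05. The common dispersion over all these genes gave a biological coefficient of variation of 26.6%. The quasi-likelihood alternative used the F distribution with 3 and 2.62 degrees of freedom, and DESeq2 1.42.0 gave size factors and dispersion outliers. On counts simulated for the same 14112 genes and 4 libraries, the spread test recovered 4 of 100 genes raised 2-fold in 1 library and 68 of 100 raised 4-fold, with 0 false calls. Small differences were therefore mostly out of reach. In the simulation every gene had the trended dispersion that the test assumes, with no scatter of genes around that trend. The 0 false calls therefore say nothing about false calls among the real genes, and the recovery may differ there too.

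All 36 members were named, with the 3 highest genes and up to 5 called genes of each pathway list. A gene that this rule names in the AP-1 partner list is not reported here. The members and lists were chosen with earlier results of these data known. Marker lists were used as sums, with the median also given for the neutrophil list. Alternatives were other scalings, filters and tests, and leaving out each library. Promoter sequences are from RefSeq, build GRCm38.p6. Where gene spans are given, they run from the first to the last exon in GENCODE M21.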

Additional observations from a re-analysis of the deposited data

Results flagged for a closer look

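In groups of 4 libraries, a gene was listed here when its highest or lowest library stood far from the nearest of the others, by the gap divided by the whole range of the group (Dixon's ratio). Of 74 sets of 4 values examined, 4 exceeded the 95% limit, about the number that chance gives at 1 in 20 (3.7). The sets were 72 from the 36 members on the CPM and log2(CPM + 0.5) scales, which are not independent of each other, and 2 from the members' share of counts and median level. Looking at both scales was decided after the values were seen. In Nr4a1 the gap was 0.899 of the range on the CPM scale and 0.853 on the log2 scale, with library 2 at 470 CPM and the next at 235 CPM. In Fosb it was 0.873 on the CPM scale, with 749 CPM in library 2 and 246 CPM in library 1. In Egr3 it was 0.864 on the CPM scale, with 95.1 CPM in library 2 and 28.9 CPM in library 1. In all 3 genes the library that stood off was library 2, on the high side.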

How the results depend on the processing

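The members' mean levels stayed within 1 SD under every scaling, for all 36 genes. They also did so with each library left out, but a mean of 4 can hardly move further than that, so this is no check: without library 2 the mean of Egr3 was 22.6 CPM in place of 40.8 and that of Fosb 208 in place of 343. The number of members that passed the spread test was 7, and 6 to 8 with DESeq2 size factors, total counts or no count filter. Of all genes tested 3.28% passed in the main setting, and 3.22%, 3.31% and 1.503% in these settings in turn. The number of members was 4 with the microglial scaling (3.08% of all genes) and 0 by the quasi-likelihood test. It was also 0 as DESeq2 dispersion outliers, where 5 genes of the whole table were listed. With a library left out it ranged from 0 (without library 2) to 10 (without library 1). Without library 1, 2, 3 and 4 in turn, 2.98%, 1.94%, 0.716% and 1.82% of all genes passed. The 5 other early response genes became 3 with the microglial scaling, 0 by the quasi-likelihood test and 0 as DESeq2 dispersion outliers. They became 2 to 9 with a library left out. The upstream and AP-1 partner lists stayed at 0 in all settings run. Library 2 was highest in 28 to 32 of 34 members under the scalings and with library 1, 3 or 4 left out. Leaving out another library can hardly lower this number, so that part is no check. In the main setting 16.5% of all genes were highest in library 2, and the share in the other settings is not given here. The number lowest in library 4 was 23, against 20.3% of all genes, and 14 with the microglial scaling, where the share of all genes is not given here. That scaling raises library 4 by its construction, since its microglial sum is the lowest. The members' median excess of library 2 ranged from 0.428 without library 4 to 0.662 with the microglial scaling. With the length of the longest transcript in place of all exons, 7 of 20 family ratios moved by more than 1 SD and none changed side. Other causes were not tested. No paired analysis was possible because there is only 1 group. Depth limits Fosl1, Npas4 and Arc, which had between 0 and 27 counts a library. A difference of 2-fold in 1 library was mostly below the reach of the spread test.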
